A study of Homo sapiens with 45 samples.

Results

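The genes described here were 9 regulators of the pluripotent state outside the POU5F1, SOX2 and NANOG core: SALL4, ZFP42, PRDM14, DPPA4, UTF1, USP44, VRTN, TERF1 and POLR3G. They were chosen by name, and all 9 had a row among the 23045 rows of the count and TPM tables. Pluripotent stem cells keep the capacity to form every embryonic lineage through a network of transcription factors that sustain one another and hold lineage genes silent. Around the core sit further DNA-binding proteins, chromatin proteins and parts of the general nuclear machinery, several of which are known markers of the undifferentiated state. SALL4 is a zinc-finger factor that recruits the NuRD deacetylase complex, ZFP42 (REX1) is a zinc-finger protein related to YY1 and a classical marker of undifferentiated cells, and PRDM14 is a PR-domain factor that works with Polycomb complexes. DPPA4 is a SAP-domain chromatin protein that pairs with DPPA2, UTF1 is a chromatin-bound protein, and USP44 removes ubiquitin from histone H2B and acts in the spindle checkpoint. VRTN (vertnin) is a DNA-binding protein known from pigs, where variants are linked to the number of vertebrae. TERF1 binds telomere repeats within shelterin, and POLR3G is the subunit of RNA polymerase III that stem cells use in place of POLR3GL.

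H1 is a widely used human embryonic stem cell line, and 45 of its cells, grown without feeders on Matrigel to passage 40, were each sequenced alone. FRISCR (written FRSCR in the labels), which recovers RNA from cells after fixation, was used on 12 fixed and 15 live cells, and lysis in the detergent Triton X-100 was used on 7 fixed and 11 live cells. Fixed cells were labelled DAPI+ and live cells DAPI-. The titles carry the code PLRC for the FRISCR cells and RLT for the Triton cells, and the groups follow the sample group label. The comparisons describe the share of each gene among the counts of fixed and live cells under each preparation. Such shares do not measure how many transcripts survive fixation. Since no separate cultures are named in the labels, a group counted as 1 sample, cells were not treated as replicates, and no p-value was computed. A code in the sample titles divides the cells into 2 library sets, called set 1 and set 2.

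Total counts were 3388417 to 6594043 per cell. After thinning each cell to 1000000 counts, the median number of genes with a count was 8917 in fixed FRISCR, 9063 in live FRISCR, 5080 in fixed Triton and 9653 in live Triton cells. The fixed Triton libraries stood apart in a further way: the unmatched row TVAS5 took a median of 26.3% of their counts, against 6.90% in live Triton, 0.773% in fixed FRISCR and 0.826% in live FRISCR cells. The stem cell markers POU5F1, NANOG, LIN28A and TDGF1 had counts in all 45 cells, and SOX2 and DNMT3B in all but 1 fixed Triton cell each. Of 18 early differentiation genes in the table, 12 in fixed FRISCR, 13 in live FRISCR, 17 in fixed Triton and 13 in live Triton cells had no count. The list's summed level was 10.4 to 156, 0.268 to 212, 0 to 40.1 and 0 to 76.7 CPM (counts scaled to a total of 1000000 in a cell) per cell in these 4 groups, and SOX17, FOXA2, GATA6, GATA4, T, MIXL1, CDX2 and SOX1 were at 0 throughout. NES was the highest gene of the list in each group, at 37.9, 24.1, 7.82 and 18.4 CPM. In the same order 2, 2, 1 and 2 genes of the list reached 5 CPM. A neural list, led by PTPRZ1 and VIM, summed to 235 to 1510, 241 to 1571, 49.5 to 371 and 250 to 928 CPM per cell in the same order, with 5, 4, 7 and 4 of its 14 genes at 0 and HES5, HOPX and TBR1 at 0 in every group. A fibroblast and feeder list, led by THY1, summed to 190 to 839, 380.3 to 1156, 35.3 to 525 and 303 to 1544 CPM, with 4, 4, 5 and 4 of its 8 genes at 0 and COL3A1, DCN, LUM and POSTN at 0 in every group. The part of other cell types in the results below was not tested.

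In live cells 8 of the 9 genes were expressed and UTF1 was near the detection limit. Compared per transcript length, in TPM, the order of medians in live FRISCR cells was DPPA4 at 391, TERF1 at 337, ZFP42 at 201, USP44 at 192, POLR3G at 143, VRTN at 104, SALL4 at 66.3, PRDM14 at 19.8 and UTF1 at 0 TPM. Live Triton cells had the same order except that USP44, with 183 TPM, stood before ZFP42, with 165 TPM. Neighbours in this order differed beyond their interquartile ranges at TERF1 and the next gene and at SALL4 and PRDM14 in both live groups, and at PRDM14 and UTF1 in live Triton cells; the other neighbours overlapped. In fixed FRISCR cells TERF1, with a median of 461 TPM, stood before DPPA4, with 345 TPM, but their interquartile ranges overlapped.

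The spread from cell to cell differed among the genes. The coefficient of variation (SD over mean of CPM) in live FRISCR cells was 0.287 for DPPA4, 0.369 for USP44, 0.370 for ZFP42, 0.387 for VRTN, 0.446 for POLR3G, 0.466 for TERF1, 0.509 for SALL4 and 1.04 for PRDM14, beside a median of 0.902 over all genes tested. In live Triton cells DPPA4 again had the lowest value, 0.227, and PRDM14 the highest, 0.769. PRDM14 lay below 10 CPM, a limit chosen after its values were seen, in 5 of 12 fixed FRISCR, 5 of 15 live FRISCR, 6 of 7 fixed Triton and 3 of 11 live Triton cells. A low gene varies more by counting alone, and variation between genes of different level is given here only as a description.

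UTF1 had 1 count over all fixed FRISCR cells, 29 over live FRISCR cells, 8 over fixed Triton cells and 0 over live Triton cells. The 29 counts lay in 4 of 15 live FRISCR cells at 1.35 to 1.88 CPM, and the 8 counts lay in a single fixed Triton cell. With no count in live Triton cells, a level of up to 0.0638 CPM remains possible for that group, from counting error alone. It did not pass the filter on low levels (a mean of at least 5 CPM over the groups), and no fold is given for it.

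**Figure D1:**
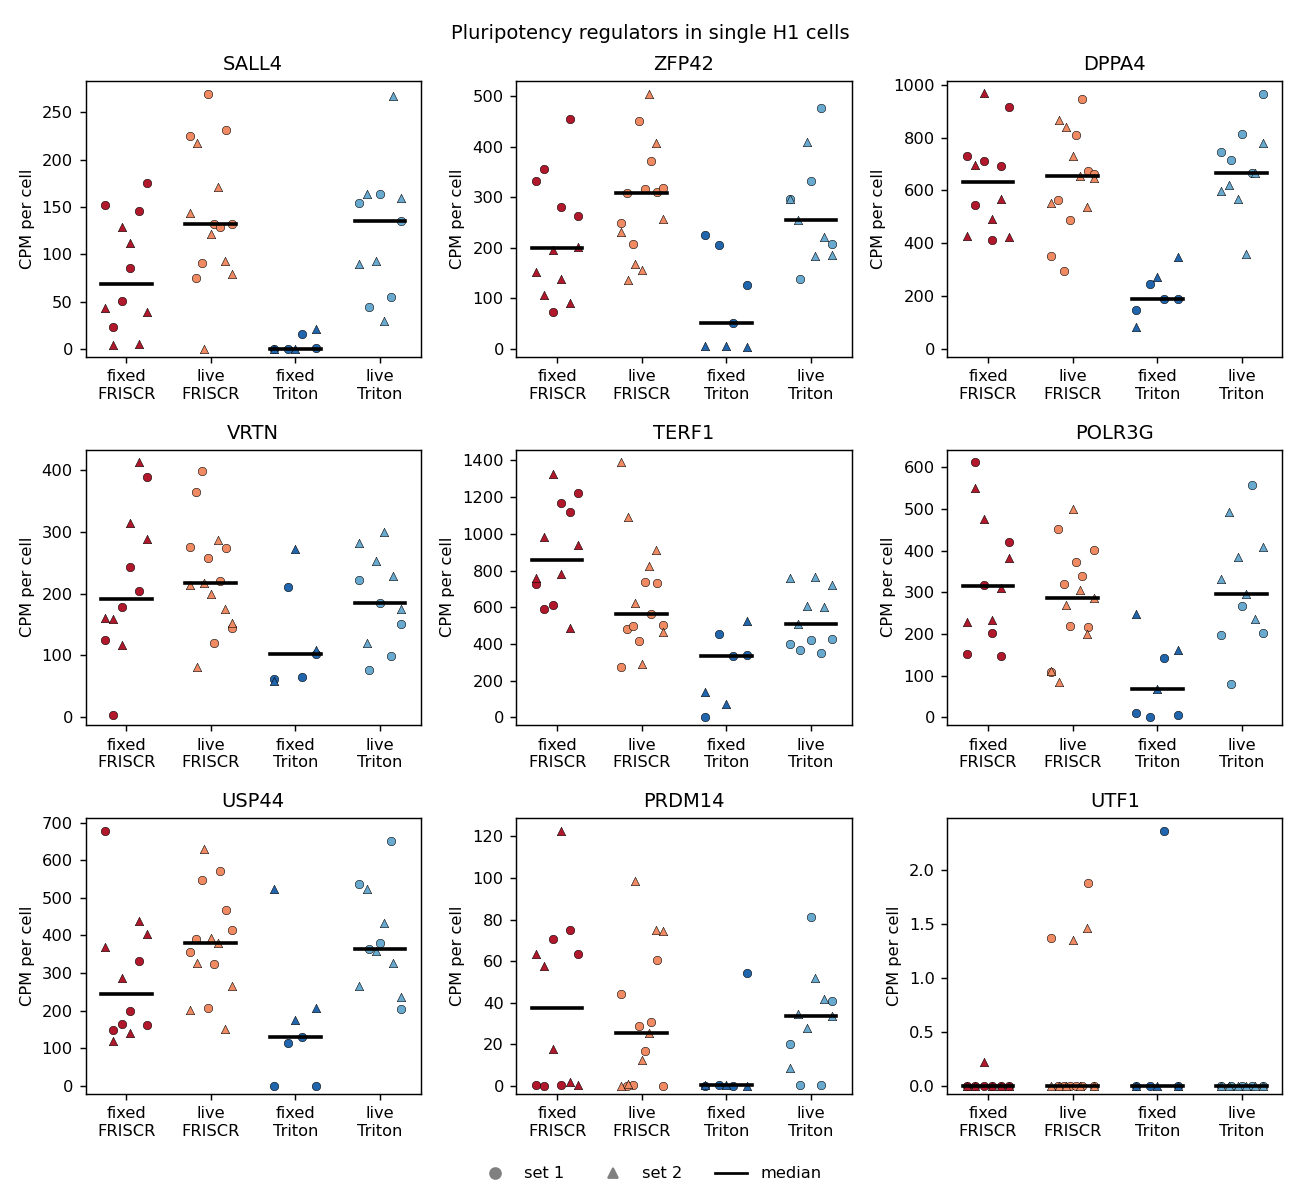
Each panel shows the CPM of 1 gene in every cell (y axis) for the 4 groups (x axis), with circles for library set 1, triangles for set 2 and a bar at the median. SALL4 stays at or below 21.4 CPM in fixed Triton cells, DPPA4 in those cells lies below every fixed FRISCR and live Triton cell, and PRDM14 shows cells near 0 in every group.

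Promoter sequences were at hand for 4 of the 9 genes, and those of the gene at the top of the order in live cells and of the gene near 0 are shown to compare their composition. They are the 250 bases before the RefSeq gene start in GRCh38.p14, 5′ to 3′ on the gene's strand, with GC boxes (GGGCGG on either strand, neighbouring matches sharing a base) in capitals. The DPPA4 stretch is chr3:109337547-109337796 on the minus strand and the UTF1 stretch is chr10:133229967-133230216 on the plus strand.
DPPA4: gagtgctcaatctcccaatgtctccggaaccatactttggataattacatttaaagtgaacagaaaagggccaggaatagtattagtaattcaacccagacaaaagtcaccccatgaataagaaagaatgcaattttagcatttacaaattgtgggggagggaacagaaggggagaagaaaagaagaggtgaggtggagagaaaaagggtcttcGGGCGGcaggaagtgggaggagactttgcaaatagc
UTF1: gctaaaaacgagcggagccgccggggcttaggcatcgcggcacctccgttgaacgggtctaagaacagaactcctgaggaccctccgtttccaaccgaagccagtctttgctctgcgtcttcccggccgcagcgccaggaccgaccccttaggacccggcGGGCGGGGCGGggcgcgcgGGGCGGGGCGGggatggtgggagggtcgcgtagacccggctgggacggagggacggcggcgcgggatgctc
The DPPA4 stretch had a GC content of 43.2%, 3 CG pairs and 1 GC box. The UTF1 stretch had 70.8%, 32 CG pairs and 4 GC boxes, and its longest transcript was 76.8% GC. ZFP42, with 74.4% GC and 3 GC boxes, and VRTN, with 52.0% GC and no GC box, were both expressed. Over 35116 promoters of this length the median GC content was 58.0%, and 42.6% held a GC box. Neither the octamer ATGCNAAT, in 2.69% of promoters, nor the TATA box TATAAA, in 10.7%, was found on either strand of these 4 stretches.

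None of the genes that passed the filter differed past 2-fold between fixed and live cells prepared by FRISCR. Of the 8 genes that passed the filter, 0 were past 2-fold lower in fixed FRISCR cells relative to live ones, where 9.96% of the 10201 genes tested were lower, and 0 were higher, where 5.68% of genes were. The median log2 ratio was -0.04 over the 8 genes and -0.03 over all genes tested. The cells of the groups overlapped for all 8 genes, as for every gene tested (0% without overlap).

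SALL4 came nearest to the 2-fold limit. It had 3.88, 68.2 and 175 CPM (lowest, median and highest cell) in fixed FRISCR cells, against 0, 132 and 270 CPM in live FRISCR cells. Fixed cells were the lower group over much of the range, with 9 of 12 below the live median, but the groups overlapped widely, and the cell without any count was a live one. Over summed counts SALL4 was 1.86-fold lower in fixed cells (exact 95% interval 1.80 to 1.93, which covers counting error only here and below), with a log2 ratio of -0.70 in set 1 and -1.17 in set 2. Without fixed FRISCR replicate 5 or replicate 6 the log2 ratio passed the limit, at -1.01 and -1.06.

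Over both sets together the other DNA-binding factors stayed closer to their live level. ZFP42 had 73.8, 199 and 455 CPM in fixed FRISCR cells, against 137, 308 and 506 CPM in live FRISCR cells. Its log2 ratio was -0.41 (-0.16 for set 1, -0.78 for set 2). PRDM14 had 0, 37.7 and 123 CPM in fixed FRISCR cells, against 0, 25.5 and 98.5 CPM in live FRISCR cells. Its log2 ratio was 0.44 (0.71 for set 1, 0.22 for set 2). For PRDM14 the groups overlapped over most of their range. For ZFP42, 9 of 12 fixed cells lay below the live median and 3 below all live cells.

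Among the chromatin proteins, DPPA4 had 412, 631 and 970 CPM in fixed FRISCR cells, against 293, 653 and 945 CPM in live FRISCR cells, a log2 ratio of -0.03. USP44 had 118, 243 and 678 CPM in fixed FRISCR cells, against 153, 380 and 630 CPM in live FRISCR cells, a log2 ratio of -0.39. VRTN had 4.34, 192 and 412 CPM in fixed FRISCR cells, against 80.6, 217 and 398 CPM in live FRISCR cells, a log2 ratio of -0.06. The lowest VRTN value came from 1 fixed cell that stood far below the rest, while the remaining cells overlapped. The sets went opposite ways for VRTN, at -0.43 in set 1 and 0.35 in set 2, and for DPPA4, at 0.19 and -0.25. USP44 was at -0.62 and -0.13 in the same order.

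TERF1 and POLR3G, of the telomere and polymerase machinery, had ratios above 1. TERF1 had 485, 859 and 1326 CPM in fixed FRISCR cells, against 275, 562 and 1390 CPM in live FRISCR cells, a log2 ratio of 0.42 (0.79 for set 1, 0.10 for set 2). POLR3G had 148, 314 and 612 CPM in fixed FRISCR cells, against 84.1, 288 and 500 CPM in live FRISCR cells. Its log2 ratio was 0.31 (0.09 for set 1, 0.56 for set 2). All but 1 fixed cell lay above the live median for TERF1, yet none lay above the highest live cell.

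After Triton lysis, 7 of the 8 genes were past 2-fold lower in fixed relative to live cells and 0 were higher, where 61.3% of the 10208 genes tested were lower and 11.0% higher. The median log2 ratio was -1.61 over the 8 genes and -1.74 over all genes tested, so most of the transcriptome was lower on this scale as well. These medians were less close otherwise. In the same order they were -1.54 and -2.35 in set 1, and -1.36 and -3.01 in set 2. By mean of per-cell CPM they were -1.66 and -1.34, the latter over the 9033 genes with a finite ratio. The choice of scale moved these values: the all-gene median moved to -0.72 with TMM scaling, -0.54 with median-of-ratios scaling and -1.13 with rRNA-named and unmatched abundant rows taken out of the totals. Of the 8 genes, 1, 1 and 4 were then more than 2-fold lower. The share over all genes was not computed on these scales. Cells of the groups did not overlap for 2 of the 8 genes, SALL4 and DPPA4, where 8.16% of all genes tested did not overlap.

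Summed over all cells, SALL4 had the lowest ratio of fixed over live Triton cells among the 8 genes. It had 0, 0.268 and 21.4 CPM in fixed Triton cells, against 29.8, 135 and 268 CPM in live Triton cells. Every fixed cell lay below every live cell, with 3 of 7 fixed cells at 0, 2 at a single or a pair of counts and only replicates 3 and 7 above 10 CPM. The summed level was lower by 23.9-fold (20.4 to 28.3), and by 53.9-fold when fixed Triton replicate 7 was left out. The log2 ratio was -4.58 on the CPM scale, -5.05 in set 1 and -4.16 in set 2, beside all-gene medians of -2.35 and -3.01 in the sets. In set 2 alone PRDM14, at -7.68 on 2 counts in fixed cells, and ZFP42, at -5.64, lay lower than SALL4. It remained past 2-fold lower at -3.56 with TMM and -3.38 with median-of-ratios scaling, and it was the single member counted under both.

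ZFP42 had 4.11, 50.8 and 226 CPM in fixed Triton cells, against 138, 255 and 477 CPM in live Triton cells, a log2 ratio of -1.54. The lowest values were those of set 2, whose 3 fixed cells had 4.11 to 5.89 CPM, while the 4 fixed cells of set 1 had 50.8 to 226 CPM. Over both sets 5 of 7 fixed cells lay below every live cell. PRDM14 had 0, 0.210 and 54.3 CPM in fixed Triton cells, against 0.232, 33.8 and 81.5 CPM in live Triton cells, a log2 ratio of -2.01. A single fixed cell, replicate 4, held 217 of the 220 PRDM14 counts. Without it the log2 ratio was -7.99, on so few counts that its size is not reliable.

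DPPA4 had the lowest coefficient of variation in fixed Triton cells among the genes that passed the filter, 0.413. It had 82.9, 189 and 346 CPM in fixed Triton cells, against 361, 666 and 964 CPM in live Triton cells. The cells did not overlap, and the log2 ratio was -1.67 (-2.01 for set 1, -1.32 for set 2). USP44 had 0.233, 130 and 522 CPM in fixed Triton cells, against 204, 364 and 652 CPM in live Triton cells, a log2 ratio of -1.28. In USP44, 2 fixed cells of set 1 were almost without counts, while replicate 5 of set 2 lay within the upper part of the live range, and the sets gave log2 ratios of -2.83 and -0.30.

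VRTN had 58.5, 102 and 273 CPM in fixed Triton cells, against 76.0, 185 and 300.2 CPM in live Triton cells. It was the gene that stayed within 2-fold, at a log2 ratio of -0.53, and its direction turned to 0.49 with TMM, 0.67 with median-of-ratios and 0.09 with the reduced totals. As a ratio of mean TPM it was -1.16, past 2-fold. A majority of its fixed cells, 4 of 7, lay within the live range.

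TERF1 had 3.72, 336 and 526 CPM in fixed Triton cells, against 351, 509 and 763 CPM in live Triton cells, a log2 ratio of -1.01 at the 2-fold limit. Its direction turned with TMM, at 0.0094, and with median-of-ratios scaling, at 0.19. It was no longer past 2-fold without fixed Triton replicate 1, 5 or 6, at -0.78, -0.91 and -0.83, or without live Triton replicate 6, 8, 9, 10 or 11, at -0.94, -0.99, -0.95, -0.99 and -0.95. POLR3G had 0.630, 68.9 and 249 CPM in fixed Triton cells, against 80.4, 297 and 557 CPM in live Triton cells, a log2 ratio of -1.86. For POLR3G, 3 of 7 fixed cells, all of set 1, had at most 10.0 CPM, and no fixed cell reached the live median.

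The cell-by-cell pattern in fixed Triton cells was a patchwork rather than an even dimming. Most genes varied widely there: the median coefficient of variation was 1.86 over the 9047 genes with a value. Among the genes that passed the filter only PRDM14, at 2.61, lay above that median. Fixed Triton replicate 1 had 226 CPM of ZFP42, the highest of its group, with 0.233 CPM of USP44 and 3.72 CPM of TERF1. Replicate 5 had 522 CPM of USP44 and 249 CPM of POLR3G, the highest of its group for both, with 5.63 CPM of ZFP42 and 0.268 CPM of SALL4. Replicate 7 had the highest TERF1, DPPA4 and SALL4, at 526, 346 and 21.4 CPM, and the lowest ZFP42, at 4.11 CPM. Thus different genes were low in different cells, and no fixed Triton cell was lowest for all of them.

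**Figure D2:**
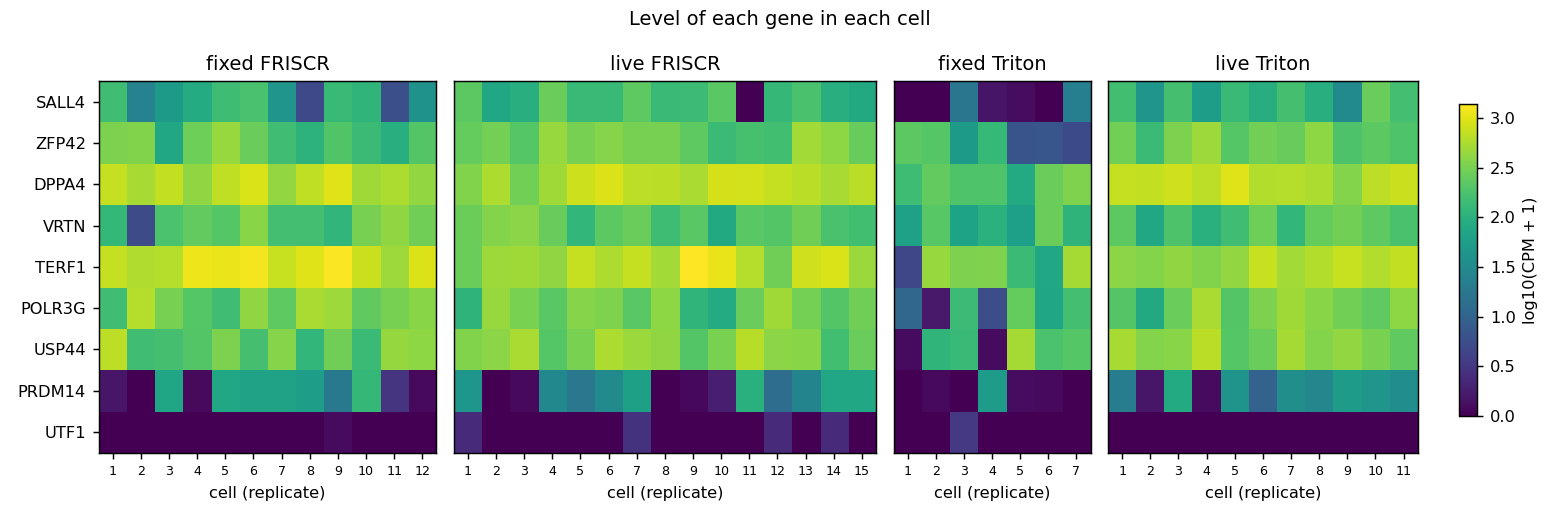
Colour gives log10(CPM + 1) for each gene (rows) in each cell (columns, by replicate number), one block a group. Dark squares are scattered over different genes in the 7 fixed Triton cells, while in the other groups they are nearly confined to PRDM14, UTF1 and a few SALL4 and VRTN cells.

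Between live cells the preparations gave similar levels. Of the 8 genes, 0 were past 2-fold lower in FRISCR relative to Triton preparations of live cells, where 4.86% of 10203 genes were lower, and 0 were higher, where 9.72% of genes were. The log2 ratios of FRISCR over Triton were 0.22 for SALL4, 0.10 for ZFP42, -0.04 for PRDM14, -0.10 for DPPA4, -0.07 for USP44, 0.23 for VRTN, 0.30 for TERF1 and -0.19 for POLR3G. The cells of the groups overlapped for all 8, where 0.225% of genes did not overlap. Only TERF1, USP44 and ZFP42 had the same direction in both sets. The TERF1 ratios were 0.40 in set 1 and 0.32 in set 2, and the USP44 ratios were -0.08 and -0.11. ZFP42 had 0.16 in set 1 and 0.0023 in set 2, while VRTN had 0.77 and -0.26.

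Between fixed cells, 6 of the 8 genes were more than 2-fold higher in FRISCR than in Triton cells, where 62.8% of 10206 genes were higher, and 0 were lower, where 9.66% of genes were. The median log2 ratio was 1.63 over the 8 genes and 1.80 over all genes tested. In the same order the medians were 1.72 and 2.41 in set 1, and 1.55 and 2.92 in set 2. The fixed Triton cells are those of the fixed over live Triton comparison, so the ratios share their scale. The all-gene median was 0.71 with TMM and 0.54 with median-of-ratios scaling, and 2 genes, SALL4 and PRDM14, were then past 2-fold. The share over all genes was not computed with these scalings. DPPA4 was the single gene without overlap of the cells, where 4.03% of all genes did not overlap.

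SALL4 was 15.0-fold higher in fixed FRISCR than in fixed Triton cells (12.8 to 17.8), and 33.8-fold higher without fixed Triton replicate 7. PRDM14 had a log2 ratio of 2.41. It was 8.39 without fixed Triton replicate 4, which held 217 of the group's 220 counts, so the size of that value is not reliable. DPPA4 at 1.54, TERF1 at 1.73 and POLR3G at 1.98 were past 2-fold in both sets, and for TERF1 11 of 12 fixed FRISCR cells lay above every fixed Triton cell. ZFP42 had a log2 ratio of 1.23, from 0.83 in set 1 and 4.86 in set 2, and was at 1.00, just under the limit, without fixed Triton replicate 6. VRTN at 0.70 and USP44 at 0.82 stayed within 2-fold, but passed it at 1.02 without fixed Triton replicate 6 and at 1.41 without fixed Triton replicate 5. With TMM the directions of VRTN and USP44 turned, to -0.39 and -0.27, and with median-of-ratios those of VRTN, USP44 and ZFP42, to -0.56, -0.44 and -0.030.

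**Figure D3:**
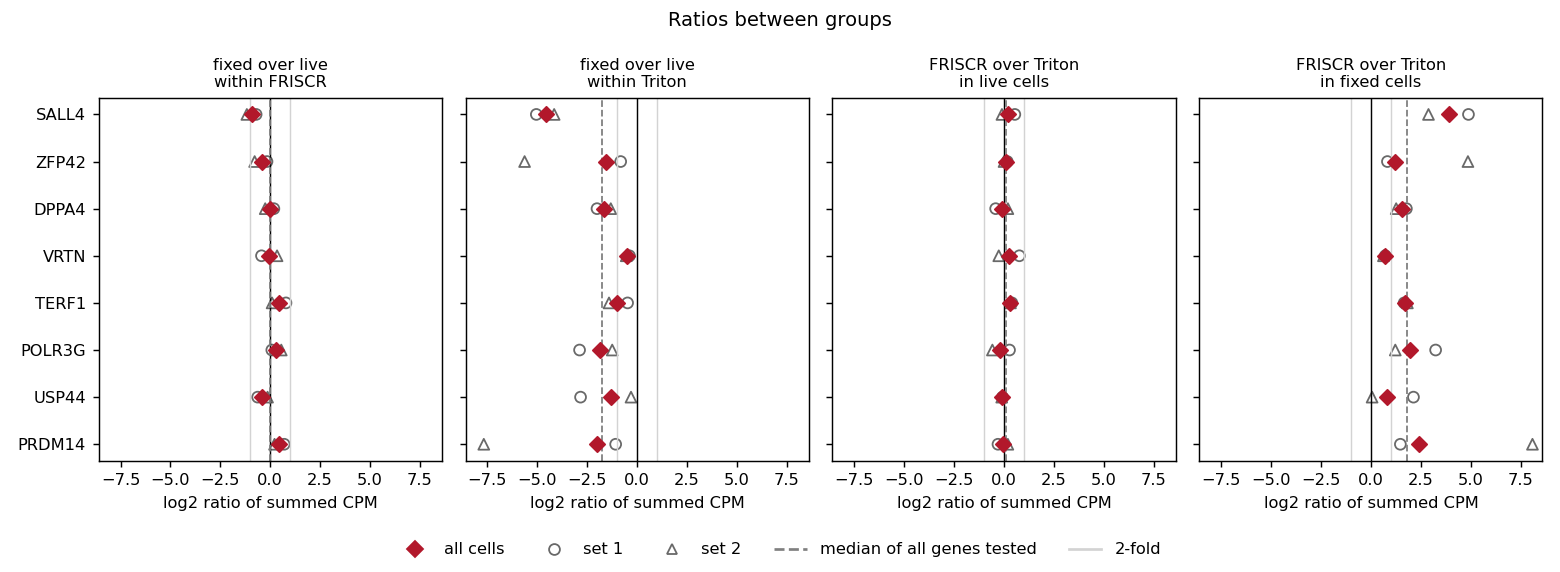
Each panel shows 1 comparison, with the log2 ratio of summed CPM (x axis) for the 8 genes that passed the filter (y axis). Diamonds are all cells, circles set 1, triangles set 2, the dashed line the median of all genes tested and the pale lines 2-fold. The diamonds lie within 2-fold in both comparisons without fixed Triton cells, and among the diamonds SALL4 lies farthest from 0 where those cells take part.

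The log2 ratio of fixed over live cells was higher with FRISCR than with Triton for all 8 genes on the scale of total counts. The difference, log2 fixed over live with FRISCR minus the same with Triton, was 3.69 for SALL4, 2.45 for PRDM14, 2.17 for POLR3G, 1.64 for DPPA4, 1.43 for TERF1, 1.13 for ZFP42, 0.90 for USP44 and 0.47 for VRTN, beside a median of 1.70 over all genes tested. With TMM it turned to -0.54 for VRTN and -0.11 for USP44, and with median-of-ratios scaling to -0.68 for VRTN, -0.25 for USP44 and -0.017 for ZFP42, beside all-gene medians of 0.70 and 0.56. It was 4.86 for SALL4 without fixed Triton replicate 7 and 8.43 for PRDM14 without fixed Triton replicate 4. The PRDM14 value then rests on very few fixed Triton counts, and its size is not reliable. In set 1 the VRTN difference was -0.05, and the others were above 0 in both sets. The difference was not tested, since each group was 1 sample.

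With each cell thinned to 1000000 counts, 7 of the 9 genes had a count in nearly every cell outside fixed Triton. Thinning equalled total counts only: rRNA-named and unmatched rows took a median of 5.54% of them in fixed FRISCR, 5.20% in live FRISCR, 42.5% in fixed Triton and 11.5% in live Triton cells. After thinning, ZFP42, DPPA4, VRTN and TERF1 had a count in all 45 cells, and POLR3G and USP44 in all but 1 and 2 fixed Triton cells. SALL4 had a count in 12 of 12 fixed FRISCR, 14 of 15 live FRISCR, 2 of 7 fixed Triton and 11 of 11 live Triton cells. Its share in fixed Triton cells was 28.6% (exact 95% binomial interval 3.67% to 71.0%), and without thinning 4 of 7 of these cells had a count. PRDM14 had a count in 8 of 12 fixed FRISCR, 10 of 15 live FRISCR, 1 of 7 fixed Triton and 9 of 11 live Triton cells, and without thinning in 11, 13, 4 and 11 cells. UTF1 had a count in 0 of 12, 3 of 15, 1 of 7 and 0 of 11 cells of these groups, and without thinning in 1, 4, 1 and 0 cells. By counting error alone, the exact interval allows a share of up to 26.5% of fixed FRISCR and 28.5% of live Triton cells with a count after thinning. Over the 8 genes that passed the filter, 95.8%, 95.0%, 75.0% and 97.7% of gene and cell pairs had a count in fixed FRISCR, live FRISCR, fixed Triton and live Triton cells. The median cell had a count for 76.5%, 77.7%, 42.7% and 81.9% of all genes tested in the same groups, a share that includes many genes of lower level.

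Close relatives and partners of the genes were at other levels, here in mean TPM over cells. POLR3G and POLR3GL are alternative subunits of RNA polymerase III. POLR3G had 161 TPM in fixed FRISCR, 146 in live FRISCR, 33.0 in fixed Triton and 165 in live Triton cells, while POLR3GL had 10.8, 8.72, 0 and 5.97 TPM, and POLR3G was the higher of the pair in each of the 45 cells. DPPA2, the usual partner of DPPA4, had counts in 2 fixed FRISCR cells and in no other cell, beside DPPA4 means of 358, 391, 87.7 and 417 TPM in the same order of groups.

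TERF1 was far above the other shelterin genes. It had means of 487, 381, 109 and 317 TPM in fixed FRISCR, live FRISCR, fixed Triton and live Triton cells, while the related telomere-binding TERF2 had 8.45, 5.02, 15.5 and 4.35 TPM. ACD reached at most 39.1, TINF2 32.6, TERF2IP 12.2 and POT1 11.6 TPM as a group mean. TERF1 exceeded TERF2 in every cell except 1 fixed Triton cell, and ACD, which reached 206 TPM in a fixed Triton cell, was also above TERF1 in 1 cell of that group. TERF1 has 5 pseudogenes named after it in GENCODE release 29, none with a row of its own. Reads shared with such copies may be counted here, which was not tested. All 45 of its values were non-whole estimates, but such values did not follow named pseudogenes among the members. ZFP42 and DPPA4, with 0, had 97.8% and 93.3% non-whole values, and SALL4, with 5, had 12.2%.

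SALL2, another SALL factor, was above SALL4 on average, with 57.4, 95.7, 7.54 and 97.8 TPM beside 37.0, 69.8, 1.84 and 60.3 TPM of SALL4 in fixed FRISCR, live FRISCR, fixed Triton and live Triton cells. SALL1 had 8.57, 13.4, 2.21 and 5.35 TPM in the same groups. ZFP42 had 134, 192, 40.2 and 180 TPM, while YY1, its widely expressed relative, had 28.4, 20.7, 19.2 and 26.9 TPM. In fixed over live Triton cells YY1 had a log2 ratio of 0.16 on the CPM scale and 1.17 with TMM, where ZFP42 was at -1.54 and -0.53. The summed YY1 level in fixed Triton cells rested on few cells. YY1 had counts in 4 of 7 of them, with a median of 5.39 TPM and a highest cell of 98.9 TPM. Its median in live Triton cells was 22.2 TPM.

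**Figure D4:**
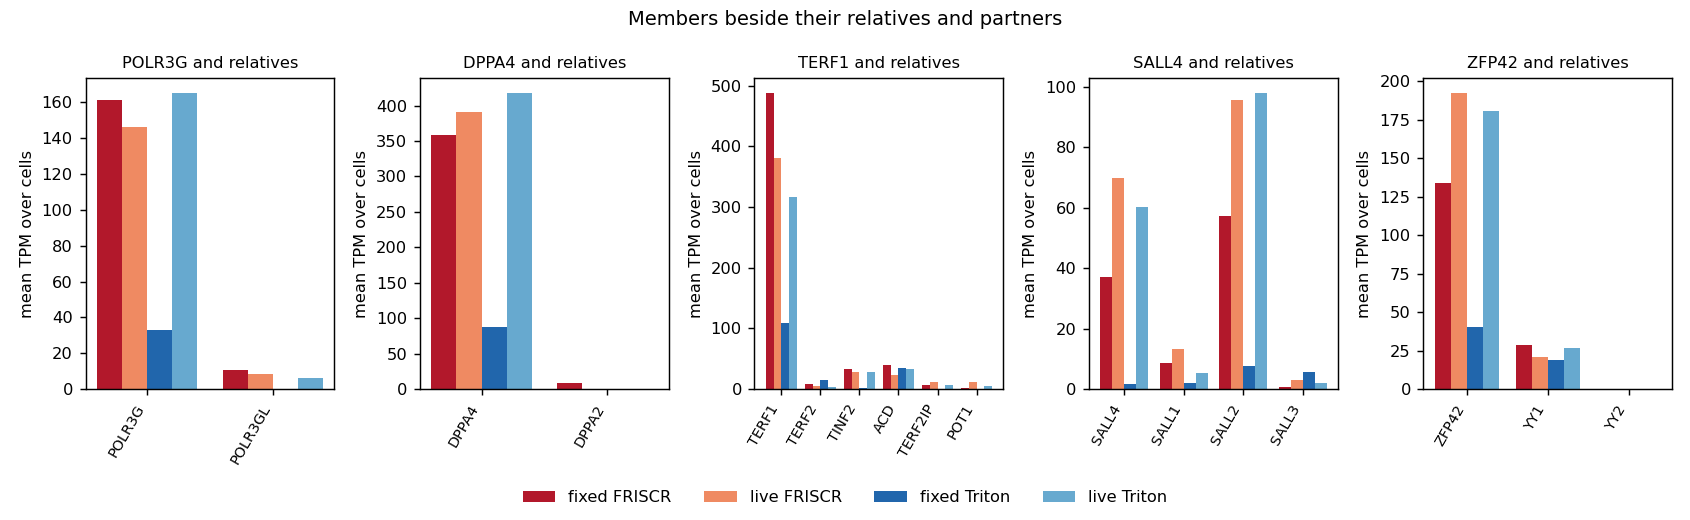
Bars give the mean TPM over the cells of each group (y axis, from 0) for 5 of the genes and their relatives or partners (x axis). POLR3G, DPPA4, TERF1 and ZFP42 exceed theirs in all 4 groups, while SALL2 exceeds SALL4 in all 4.

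Lists of genes that work beside these were read against the same background. In fixed over live FRISCR cells 9.96% of all genes tested were past 2-fold lower and 5.68% higher. In fixed over live Triton cells 61.3% were lower and 11.0% higher. Of 30 core network genes 22 were tested, and in fixed over live FRISCR cells 0 were past 2-fold either way, with a median log2 ratio of -0.17. In fixed over live Triton cells 13 were lower and 1 higher, with a median of -1.47. TDGF1, a NODAL co-receptor, LIN28A, an RNA-binding protein, and POU5F1 were the most abundant, with log2 ratios of -1.44, -1.80 and -1.52 in fixed over live Triton cells and 0.16, -0.06 and 0.12 in fixed over live FRISCR cells. Of 13 naive-state genes only ARGFX, a homeobox gene, passed the filter. Its log2 ratio was 1.28 in fixed over live Triton cells, at 22.2 against 9.12 CPM.

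Of 16 SALL family and NuRD genes, 15 were tested, of which 2 were lower and 0 higher in fixed over live FRISCR cells and 10 lower and 1 higher in fixed over live Triton cells. HDAC2, RBBP4 and RBBP7, all NuRD subunits, had log2 ratios of -0.60, -0.06 and -0.40 with FRISCR and -2.45, -1.94 and -1.85 with Triton. Of 14 PRDM and Polycomb genes, 11 were tested, of which 4 were lower and 0 higher with FRISCR and 6 lower and 2 higher with Triton. DNMT3A, a DNA methyltransferase, was among the 4, with a log2 ratio of -1.16, while its relative DNMT3B was at -0.47.

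Of 14 shelterin and telomerase genes, 13 were tested, with 1 lower and 0 higher in fixed over live FRISCR cells and 9 lower and 2 higher in fixed over live Triton cells. DKC1, the pseudouridine synthase of telomerase, had a log2 ratio of -3.84 with Triton, while its small partners NOP10 and NHP2 were at 1.67 and 0.05. Of 20 RNA polymerase III genes, 19 were tested, with 1 lower and 0 higher with FRISCR and 11 lower and 4 higher with Triton. Its most abundant genes were shared small subunits of the nuclear polymerases: POLR2F and POLR2L were at 1.33 and 1.38 with Triton and POLR2E at 0.14, while POLR3G was at -1.86. Of 20 genes for histone ubiquitination and the spindle checkpoint, 17 were tested, with 2 lower and 1 higher with FRISCR and 8 lower and 1 higher with Triton. CDC20, the checkpoint target, was at -0.27 with FRISCR and -5.07 with Triton. These Triton counts moved with the scale, and the share over all genes was not computed with TMM. With TMM the lower and higher counts were 6 and 4 for the core network, 7 and 3 for the SALL and NuRD list, 5 and 2 for the PRDM and Polycomb list, 7 and 4 for the shelterin list, 8 and 6 for the RNA polymerase III list and 5 and 3 for the ubiquitination list, whose median turned to 0.16.

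The library sets differed less within the other 3 groups than within fixed Triton cells. The median size of the log2 ratio of set 2 over set 1 over all genes tested was 0.59 in fixed FRISCR, 0.52 in live FRISCR, 2.36 in fixed Triton and 0.58 in live Triton cells. Within fixed Triton cells it was -4.94 for ZFP42, which had 5.20 CPM in set 2 and 160 CPM in set 1. It was 2.27 for USP44, 2.21 for POLR3G and -6.39 for PRDM14, the last on 2 counts in set 2. Within fixed FRISCR cells it was -0.91 for ZFP42 and -0.87 for SALL4. In live Triton cells TVAS5 took 2.76% to 3.47% of counts in set 1 and 6.90% to 13.0% in set 2. Among live cells TERF1 was higher in set 2 in both preparations, at 0.67 with FRISCR and 0.75 with Triton, neither past 2-fold.

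No pair of the genes had a strong correlation across all 26 live cells. Pearson's r of log2(CPM + 1), centred within preparation and set, had a median of 0.04 over the 28 pairs of the 8 genes, with 16 pairs above 0 and 0 pairs of size 0.5 or more. The pair with the highest r was ZFP42 and POLR3G at 0.41, and the pair with the lowest was SALL4 and USP44 at -0.46. The sign was the same in both preparations for 12 of the 28 pairs. In the 11 live Triton cells alone r reached 0.81 for SALL4 and DPPA4 and 0.77 for ZFP42 and POLR3G, which were -0.16 and 0.17 in live FRISCR cells. The cells of a set share a title code, and r is given as a description.

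Among 8168 genes searched, those most like each regulator across the live cells were MCL1 (r 0.82) and IFRD2 (0.82) for SALL4, PCNX (0.73) and CAMSAP1 (0.71) for ZFP42, CCDC115 (0.76) and ATF7IP (0.73) for PRDM14, SCNN1A (0.78) and ALKBH1 (0.75) for DPPA4. They were GCC1 (0.78) and SDAD1 (0.73) for USP44, GINS3 (0.73) and CPSF2 (0.71) for VRTN, HNRNPU (0.80) and RFC3 (0.74) for TERF1, and MUDENG (0.75) for POLR3G. These choices were unstable: of the 16 genes found, 2 were also the most alike in live FRISCR cells alone and 0 in live Triton cells alone. The values for SALL4 rested on live FRISCR replicate 11, the cell without SALL4 counts, and without it r was 0.61 for MCL1 and 0.38 for IFRD2. The r of HNRNPU with TERF1 was 0.88 in live FRISCR and 0.09 in live Triton cells.

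Counting can touch some values. POLR3G shares exon sequence with MBLAC2 on the opposite strand, and the libraries are not described as stranded, so reads of the shared part cannot be told apart. MBLAC2 had 1.19 CPM in fixed FRISCR, 15.1 in live FRISCR, 0 in fixed Triton and 8.09 in live Triton cells. SALL4 and POLR3G also have 5 and 2 pseudogenes named after them, none with a row. The share of nonzero values that were not whole numbers, a sign of reads divided among transcripts or genes, was 12.2% for SALL4 and 68.9% for POLR3G, against 97.8% for ZFP42 and 93.3% for DPPA4.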

How the data were processed

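Libraries from single H1 cells were made with Smart-seq2 and Nextera XT, per the labels' protocols, whose extraction text describes cortical tissue and does not state the fixative of the H1 cells. The authors deposited estimated counts per gene (expected counts), of which 40.3% of nonzero values were not whole. Estimated counts were rounded here to whole numbers. The authors also deposited TPM values, scaled for transcript length and library size. The submitters' processing notes name GRCh37 (hg19). Aligner, quantifier and gene annotation: not given in the sources used here. Groups follow the labels' sample group; no cell was left out. Replicate numbers only name cells.

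CPM of a group is the summed count of a gene over the summed totals of its cells. The exact 95% interval of a ratio comes from splitting both counts binomially. A sum of 0 was set at 3 counts over the group. The filter kept genes whose CPM averaged 5 or more over the 4 groups (10210, of which a comparison drops those without a count above 3 in either of its groups). A gene was called past 2-fold. Without replicates no p-value was computed. For detection, cells were thinned to 1000000 counts (seed 20). Likeness used Pearson's r of log2(CPM + 1), pseudocount 1, among genes with at least 10 CPM and a count in 60% of live cells.

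Every member is named; the rule for other genes took the 3 most abundant of each list and the close relatives, of which those a result turned on are named. The likeness search gave the top 2 genes for each member, of which 1 is not reported here. The members and lists were chosen with earlier results of these data known. Alternatives were scaling by TMM from edgeR 4.0.16 or by median-of-ratios from DESeq2 1.42.0 in R 4.3.3, means of CPM or TPM, totals without 44 rRNA-named and 5 unmatched rows, filters, single sets and leaving out each cell. Analyses ran in Python 3.11.15, and their functions were tested on simulated data. Folds were simulated for the FRISCR groups only, not for cells like the fixed Triton ones. Promoter stretches are RefSeq's, GRCh38.p14, and transcript length and GC are from GENCODE release 29.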

Additional observations from a re-analysis of the deposited data

Results flagged for a closer look

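In fixed Triton cells 3 genes had 1 cell far above the others of the group. USP44 had 522 CPM in replicate 5, PRDM14 had 54.3 CPM in replicate 4 and UTF1 had 2.36 CPM in replicate 3. For independent, normally distributed values about 1 group in 20 shows such a gap by chance, and these groups are cells of 1 sample. That rate does not hold for values such as these. UTF1 had a count in no other cell of the group, so its gap spans the whole range. The median coefficient of variation in these cells was 1.86 over all genes with a value. The share of all genes with such a gap was not computed. The summed PRDM14 value of this group rests largely on replicate 4.

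For 3 genes the ratio of fixed over live cells was above 1 with FRISCR and below 1 with Triton in both library sets. The share of all genes with this pattern was not computed. With Triton the all-gene median log2 ratio of fixed over live cells was itself -2.35 in set 1 and -3.01 in set 2. The difference of the log2 ratios, FRISCR minus Triton, was 1.43 for TERF1, 2.17 for POLR3G and 2.45 for PRDM14, beside a median of 1.70 over all genes tested. Without fixed Triton replicate 4 the PRDM14 difference was 8.43, on very few remaining fixed Triton counts. The TERF1 ratio within Triton, over all cells, turned above 1 with TMM, at a log2 value of 0.0094, and with median-of-ratios scaling, at 0.19. These differences were not tested.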

How the results depend on the processing

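Of the counts recomputed under alternatives, 299 stayed within 1.5 times their value and 18 did not. Many of the 299 were counts of 0 that stayed at 0, so they say little of the counts above 0, given below. Of single log2 ratios, 418 stayed within their counting interval, 555 moved beyond it and 3 called ones changed direction. The 7 genes past 2-fold lower in fixed relative to live Triton cells became 1 with TMM, 1 with median-of-ratios and 4 without rRNA-named and unmatched rows, 8 by mean TPM, and 6 to 7 when each cell was left out. The 6 that were higher in fixed FRISCR than in fixed Triton cells became 2 with TMM and 2 with median-of-ratios, 8 by mean TPM, and 6 to 7 when each cell was left out. Of the differences between the fixation ratios, 6 were past 2-fold. This became 3 with TMM and 3 with median-of-ratios scaling, alternatives chosen after seeing the data. The all-gene medians of the difference were 1.70, 0.70 and 0.56 in the same order. The share of all genes past 2-fold was not computed for the difference or under these alternatives. In fixed over live FRISCR cells the 0 lower genes became 1, SALL4, in set 2 alone, and 0 to 1 when each cell was left out. Without a filter UTF1 added 1 lower gene there, 1 higher gene in fixed over live Triton cells, 1 higher gene in FRISCR over Triton live cells and 1 lower gene in FRISCR over Triton fixed cells, on at most 29 counts. The other counts stayed at 0 when each cell was left out. Called values that changed direction were TERF1 in fixed over live Triton cells, at 0.0094 with TMM and 0.19 with median-of-ratios, and ZFP42 in FRISCR over Triton fixed cells, at -0.030 with median-of-ratios; the cause was not tested. Of the 16 genes most like a member, 6 were the same by Spearman's rho, 8 with a pseudocount of 10, 2 in live FRISCR cells alone and 0 in live Triton cells alone. Of the gene and cell pairs of all 9 genes, 338 had a count after thinning to 1000000 counts, which was 352 thinned to 3000000 counts, 356 without thinning and 331 at 5 counts or more. No analysis paired by cell was possible because the labels give no replicate numbers that groups share. The groups do share the title codes, and ratios within each set are given for some genes. Each group is 1 sample, so that no result comes from a test. Depth limits what is known of UTF1, with at most 29 counts in a group, and intervals cover counting error only.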
